A study of Mus musculus with 4 samples.

Results

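The genes described here make up the protein-folding and quality-control machinery of the endoplasmic reticulum (ER). They comprise chaperones, disulfide oxidoreductases, components of ER-associated degradation (ERAD) and sensors of the unfolded protein response (UPR). They were taken from a named list of 44 gene symbols, and all 44 had a row among the 20377 genes of the deposited table. By role, 14 are folding genes, 11 oxidation genes, 11 degradation genes, 6 sensor genes and 2 genes of the translocation channel. Membership goes by gene symbol, with no threshold on the values.

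The cells, labelled rGBC2, were insulin-positive cells made from primary gallbladder cells of mice on a C57BL/6 background, 8 weeks of age, that carried the MIP-GFP transgene B6.Cg-Tg(Ins1-EGFP)1Hara/J. Over 10 days they received the transcription factors Pdx1, Ngn3, Mafa and PAX6 with compounds that the labels do not name, in a protocol described there as improved. Green fluorescence from the Ins1 promoter was the basis of the cell sort, so the libraries hold cells in which that transgene was active. The series has 1 group of 4 RNA-seq libraries, numbered replicate 1 to replicate 4. It is not stated whether the 4 came from separate animals or cultures, so each p-value measures the spread between these libraries, part of which may be technical.

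Proteins bound for secretion enter the ER through the Sec61 channel, fold with the help of chaperones such as BiP, and gain disulfide bonds from protein disulfide isomerases that are reoxidised by ERO1 enzymes. Chains that fail to fold are pulled back into the cytosol and degraded. Unfolded protein in the ER is sensed by IRE1, ATF6 and PERK, which raise the production of chaperones and ERAD components through transcription factors that include spliced XBP1 and cleaved ATF6. Insulin is folded from a precursor with several disulfide bonds, and beta cells are known for a high load on this machinery.

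Promoter sequence was examined first, because UPR transcription factors are known to act through short elements in the promoters of these genes. Promoter windows from RefSeq (mouse build GRCm38.p6, from 250 bases before to 50 bases after the start site) were matched to 37 of the 44 genes. The ER stress element was searched as CCAAT, 9 bases of any kind, then CCACG, the ER stress element II as ATTGG, 1 base of any kind, then CCACG, and the UPR element as TGACGTGG, all on both strands. CCACG or its complement is common to all 3, and no matched gene held more than 1 kind. An ER stress element was present in 10 of the 37 genes (27.0%), against 37 of the 27025 genes with a window in the table (0.137%), a count that includes these 10. As the elements are known from promoters of these genes, a high share among them was likely from the outset. The share by role was 6 of 11 folding genes, 2 of 11 oxidation genes, 2 of 10 degradation genes, 0 of 4 sensor genes and 0 of 1 translocation gene. With 1 mismatch allowed in the fixed bases it was present in 17 of 37 genes, against 1.72% of all genes. The share by role became 6 of 11 folding, 5 of 11 oxidation and 6 of 10 degradation genes, so the difference between those roles did not hold. It stayed at 0 of 4 sensor genes and 0 of 1 translocation gene. An ER stress element II was present in 2 of 37 genes (5.41%), against 0.0444% of all genes, and a UPR element in 3 of 37 (8.11%), against 0.714%. Any of the elements was present in 15 of 37 genes (40.5%), against 0.884% of all genes. A match is a description of these letters and not a shown binding site. Hyou1, Sil1, Manf, Derl1, Atf6, Ern2 and Sec61a1 had no entry.

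The 250 bases before the start site of Hspa5, the gene of BiP, and of Ero1lb, the pancreas-enriched disulfide oxidase, are shown because these are the best-known chaperone and oxidase of insulin-producing cells. Capitals mark the ER stress element, which lies on the strand of the gene in Hspa5 and on the opposite strand in Ero1lb.
Hspa5 (chr2:34771840-34772089, plus strand): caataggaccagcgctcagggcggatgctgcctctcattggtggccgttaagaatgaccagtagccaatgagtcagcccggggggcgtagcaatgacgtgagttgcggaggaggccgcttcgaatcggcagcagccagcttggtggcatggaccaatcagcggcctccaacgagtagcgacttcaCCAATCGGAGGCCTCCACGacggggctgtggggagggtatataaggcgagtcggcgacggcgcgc
Ero1lb (chr13:12565633-12565882, plus strand): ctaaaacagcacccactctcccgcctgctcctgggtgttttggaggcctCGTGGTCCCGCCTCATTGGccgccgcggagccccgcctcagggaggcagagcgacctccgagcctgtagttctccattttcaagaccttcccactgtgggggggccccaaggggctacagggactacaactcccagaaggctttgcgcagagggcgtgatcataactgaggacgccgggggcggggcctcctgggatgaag

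All 11 ER stress elements of the 10 genes are given below in order of mean level, to let the variable 9 bases be compared. Each is printed 5′ to 3′ on the strand on which it reads as spelled, with the element in capitals, 6 flanking bases on each side, and the element's position counted from the start site. Hsp90b1, the gene of the ER HSP90 chaperone GRP94, was the single gene with 2 copies.
Hsp90b1, bases -212 to -194 (chr10:86705632-86705662, minus strand): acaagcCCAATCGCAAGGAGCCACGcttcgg
Hsp90b1, bases -107 to -89 (chr10:86705527-86705557, plus strand): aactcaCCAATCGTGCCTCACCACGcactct
Calr, bases -162 to -144 (chr8:84847069-84847099, plus strand): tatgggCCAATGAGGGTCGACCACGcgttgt
Hspa5, bases -65 to -47 (chr2:34772019-34772049, plus strand): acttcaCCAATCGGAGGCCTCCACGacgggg
Ero1lb, bases -201 to -183 (chr13:12565676-12565706, minus strand): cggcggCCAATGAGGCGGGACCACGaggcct
Pdia6, bases -98 to -80 (chr12:17266485-17266515, plus strand): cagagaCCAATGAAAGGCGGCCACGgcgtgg
Canx, bases -145 to -127 (chr11:50325794-50325824, minus strand): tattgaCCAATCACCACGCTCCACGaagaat
Syvn1, bases -44 to -26 (chr19:6046526-6046556, plus strand): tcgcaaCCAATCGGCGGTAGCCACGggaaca
Creld2, bases -126 to -108 (chr15:88819514-88819544, minus strand): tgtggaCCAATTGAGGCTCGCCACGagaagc
Dnajc3, bases -105 to -87 (chr14:118937821-118937851, plus strand): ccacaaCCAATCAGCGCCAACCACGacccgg
Derl3, bases -156 to -138 (chr10:75893236-75893266, minus strand): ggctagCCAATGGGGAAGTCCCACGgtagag

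The fixed CCAAT and CCACG ends were identical by construction, while the 9 bases between them differed from gene to gene. The elements lay between -212 and -26 bases from the start sites of the RefSeq table. For Syvn1, Dnajc3 and Txndc5 the first bases of the gene's transcript were not found in the window shown, so that the window may belong to another start of the gene and their positions are less certain. The windows with the other 2 elements are given for completeness, with the element again in capitals. The ER stress element II matched Dnajb11, a J-domain co-chaperone of BiP, and Herpud1, a membrane scaffold of ERAD.
Dnajb11, bases 8 to 18 (chr16:22857846-22857868, plus strand): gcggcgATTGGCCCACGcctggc
Herpud1, bases -52 to -42 (chr8:94386371-94386393, plus strand): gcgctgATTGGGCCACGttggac

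The UPR element matched the disulfide isomerase family genes Txndc5 and Txndc11 and Vcp, the ATPase that extracts ERAD substrates from the membrane.
Txndc5, bases -138 to -131 (chr13:38528039-38528058, minus strand): cgccgcTGACGTGGcgctag
Vcp, bases -114 to -107 (chr4:43000608-43000627, minus strand): gccaatTGACGTGGcgttac
Txndc11, bases -102 to -95 (chr16:11134621-11134640, minus strand): tgtggcTGACGTGGagagtc

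**Figure D1:**
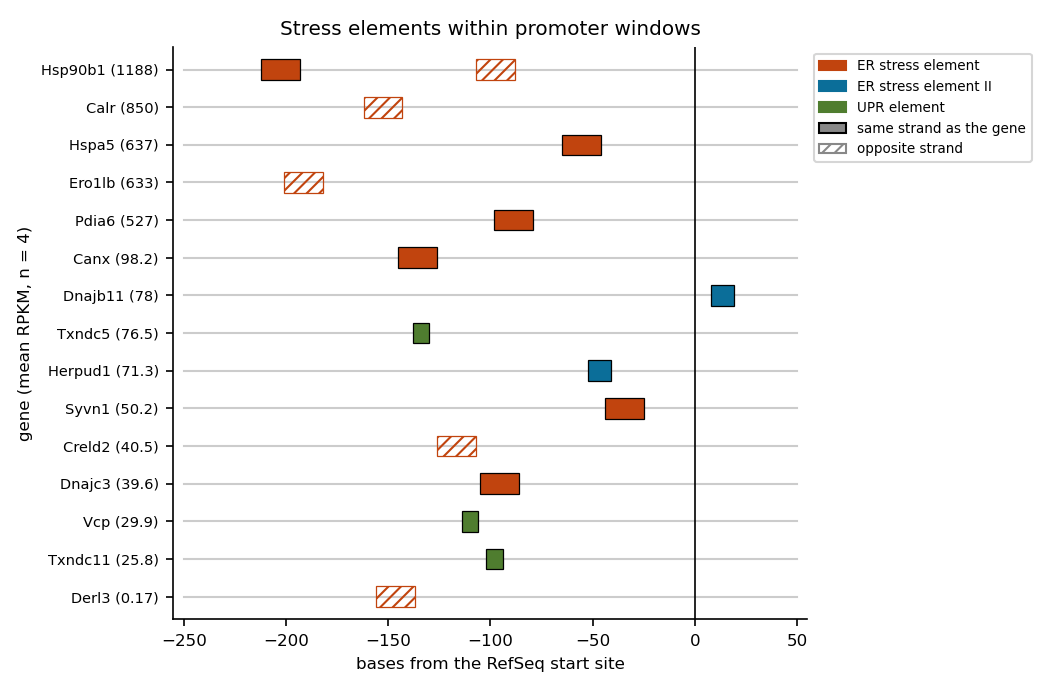
Position of the ER stress element, ER stress element II and UPR element in the promoter windows of the 15 genes that hold any, in bases from the start site, with genes ordered by mean RPKM (in brackets, n = 4 libraries). Solid boxes lie on the strand of the gene and hatched boxes on the opposite strand. The 5 genes with the highest levels among those shown, Hsp90b1, Calr, Hspa5, Ero1lb and Pdia6, all carry an ER stress element, and so does Derl3 at 0.17 RPKM.

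The 10 genes with an ER stress element had a median level of 313 RPKM (range 0.17 to 1188 RPKM), against 60.1 RPKM for the 27 genes with a promoter window but no such element (range 0.16 to 699 RPKM). In each of these sets 5 genes averaged over 100 RPKM. Another 16 genes of the table that hold the element had a median of 0.365 RPKM, and the highest of them, Alg12, averaged 13.1 RPKM. Alg12, a mannosyltransferase gene of N-glycan assembly, shares its promoter with Creld2 on the opposite strand (overlap chr15:88819396-88819568, GRCm38.p6), so this element is the same sequence for both. No test was made between these sets, and the element alone did not go with a high level outside the ER genes.

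RPKM is scaled for the length of the transcript and the depth of the library, so levels may be compared roughly between genes. Differences between these libraries still went with GC content, as given below, and with length. Across 11842 genes the Spearman correlation of length with the deviation from the gene's mean was 0.35, 0.08, -0.15 and -0.33 in replicates 1 to 4. Mean levels may still carry such trends. The estimated depth was 22.1 M to 32.8 M reads per library, and at such depth the level of an abundant gene is limited by the spread between libraries and not by counting. Replicates 3 and 4 were far closer to each other than any other pair (Spearman correlation across genes 0.997, against 0.930 to 0.963), and still differed beyond sampling noise (chi-square per degree of freedom 13.5, against 141 to 347 in the other pairs) and so were not taken as 1 library deposited more than once. This does not show that they came from separate cultures. The Y-linked gene Eif2s3y measured 48.5, 44.7, 0 and 0 RPKM across replicates 1 to 4, so the 4 libraries did not all come from the same pool of cells. Insulin-positive cell markers were present, with Ins2 at 1091, 3704, 3851 and 4240 RPKM in replicates 1 to 4. Gallbladder epithelial keratins were also present (Krt7 at 635 ± 186 RPKM and Krt8 at 313 ± 60.4 RPKM, SD, n = 4). Among the other gallbladder epithelial markers, Spp1 averaged 639 RPKM, Epcam 201 RPKM and Krt19 86.0 RPKM, but Sox9 only 0.84 RPKM. Of markers of other cell types, the mucous and goblet list was high, with a summed level of 1906 to 4008 RPKM over 9 genes, and the rest were low. The summed level was 1.34 to 6.59 RPKM for 7 acinar genes, with Pnlip at 0 throughout, and 0.44 to 1.01 RPKM for 5 plasma and B cell genes. It was 2.09 to 6.52 RPKM for 4 leukocyte genes, 0.06 to 0.24 RPKM for 3 endothelial genes and 0.47 to 1.42 RPKM for 3 fibroblast genes. In bulk libraries, fewer cells of a type cannot be told apart from less RNA per cell.

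As a whole the ER genes were abundant in these cells. Their mean levels had a median of 73.9 RPKM, against 7.38 RPKM for the 16919 genes detected in at least 1 library, and 24 of the 44 lay in the top 10% of those genes and 38 in the top 25%. Hsp90b1 ranked 27th, Calr 52nd, P4hb 62nd, Hspa5 74th, Ero1lb 78th and Pdia6 97th by mean level. Together the 44 genes took 1.25%, 1.65%, 1.30% and 1.26% of the summed RPKM in replicates 1 to 4. Of 44 genes, 41 were above 1 RPKM (limma with Benjamini-Hochberg adjustment over all 16919 genes, highest adjusted p among them 0.00021), where 65% of all genes were called above that level. The remaining 3, Pdia2, Derl3 and Ern2, were below 1 RPKM (adjusted p from 8.37e-06 to 0.00043), where 26.1% of all genes were.

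Above 10 RPKM were 39 of 44, against 35.9% of all genes, and below it were the same 3 genes Pdia2, Derl3 and Ern2, against 48.2% of all genes. Dnajc1 and Pdia5 passed the test in neither direction (adjusted p = 0.796 and 0.0853 in limma). Above 100 RPKM were 10 of 44, against 3.79% of all genes, with limma adjusted p of 0.00107 or lower. These were the folding genes Hsp90b1, Calr, Hspa5 and Sil1, the oxidation genes P4hb, Ero1lb, Pdia6 and Pdia3, the sensor pathway gene Xbp1 and the channel gene Sec61a1. No degradation gene was called above 100 RPKM, and 25 of 44 genes were called below it, against 92.8% of all genes, 9 of them degradation genes. Among those 25, Dnajb9, Dnajb11 and Pdia4 lost the call in some alternative settings.

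**Figure D2:**
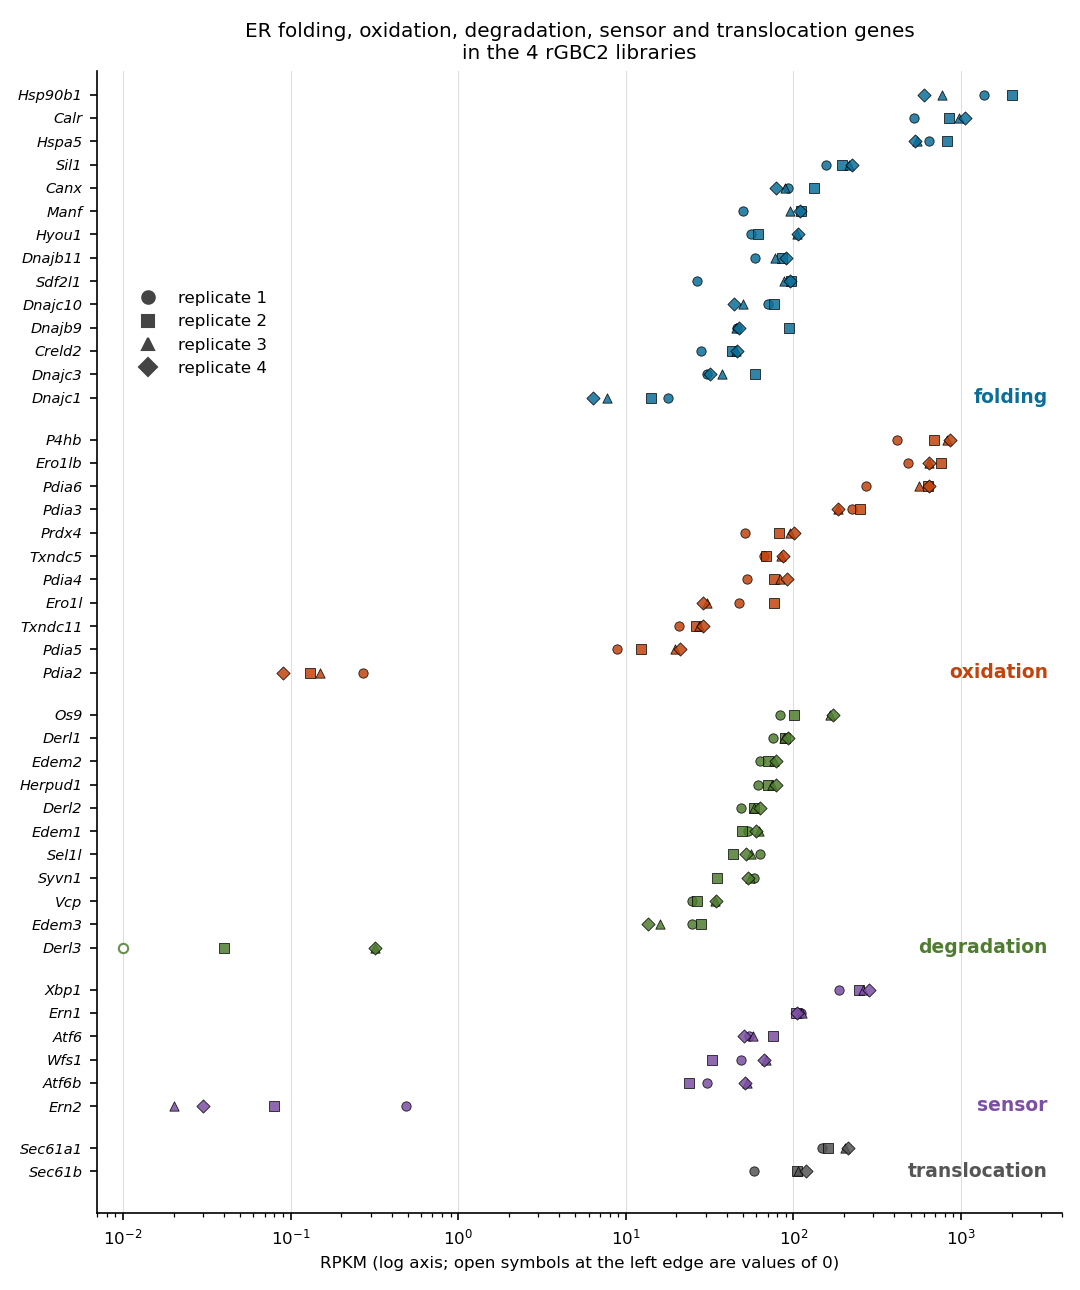
Level of each of the 44 ER genes in the 4 libraries, in RPKM on a log axis, grouped by role and ordered by mean, with a symbol for each replicate and an open symbol for a value of 0. Hsp90b1 reaches 2013 RPKM in replicate 2, and Pdia2, Derl3 and Ern2 stay below 0.5 RPKM.

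Folding genes held the highest levels. Hsp90b1 (mm9, chr10:86153585-86168189, minus strand) measured 1373, 2013, 769 and 597 RPKM in replicates 1 to 4. Hspa5 (chr2:34627609-34632049, plus strand), the HSP70 chaperone BiP, measured 647, 826, 545 and 532 RPKM. In the deposited values both chaperones were higher in replicates 1 and 2 than in replicates 3 and 4, with no overlap, and Hsp90b1 spanned 3.37-fold. With a trend on GC content and length removed, Hsp90b1 kept this split. Hspa5 then deviated from its mean by -0.09, 0.19, -0.04 and -0.06 on the log2 scale in replicates 1 to 4, and did not keep it. Hspa5 averaged 637 ± 136 RPKM and Hsp90b1 1188 ± 643 RPKM (SD, n = 4), and Hspa5 was the lower of the pair in 4 of 4 libraries, by 1.12-fold to 2.44-fold (mean log2 difference -0.76 ± 0.52, exact two-sided sign-flip test p = 0.13, adjusted p = 0.154 over 16 pairs). With 4 libraries there are 16 sign arrangements and 0.13 is the smallest p this test can give, so no pair could pass 0.05, and the size and the number of libraries carry the comparison.

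The lectin chaperones differed widely from each other. Calr (chr8:87365986-87370830, minus strand), the gene of the soluble lectin calreticulin, measured 521, 845, 974 and 1058 RPKM. Canx, which encodes its membrane-bound relative calnexin, measured 92.7, 132, 89.1 and 78.5 RPKM. Calr was 5.63-fold to 13.5-fold above Canx in 4 of 4 libraries (mean log2 difference 3.08 ± 0.60, exact sign-flip p = 0.13, adjusted p = 0.154). In the deposited values Calr was lowest in replicate 1 and highest in replicate 4, whereas Canx was highest in replicate 2 and lowest in replicate 4. With the GC and length trend removed, both were lowest in replicate 1, at -0.72 (Calr) and -0.34 (Canx) from the gene's mean on the log2 scale.

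Nucleotide exchange factors release BiP from its clients. Hyou1, a large HSP70 relative with this function, measured 56.1, 61.6, 105 and 107 RPKM. In the deposited values its replicates 3 and 4 were above replicates 1 and 2, the opposite order to Hspa5. Hyou1 averaged 82.4 ± 27.3 RPKM and stood 4.98-fold to 13.4-fold below Hspa5 in 4 of 4 libraries (mean log2 difference -2.97 ± 0.74, exact sign-flip p = 0.13, adjusted p = 0.154). Sil1, the other exchange factor measured, averaged 197 ± 30.1 RPKM and was the higher of the 2 by mean.

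J-domain proteins recruit BiP to its substrates and were less abundant than BiP. Dnajb9 measured 45.7, 93.8, 45.5 and 47.1 RPKM, with replicate 2 alone standing high. Dnajb11 measured 58.8, 85.7, 77.7 and 89.7 RPKM, with replicate 1 lowest. Dnajb9 was below Dnajb11 in 3 of 4 libraries (mean log2 difference -0.48 ± 0.47, exact sign-flip p = 0.25, adjusted p = 0.267), so their order was not settled at this spread. With the GC and length trend removed, Dnajb9 was the higher in 0 of 4 libraries (-0.48 ± 0.13). Dnajc1 was the lowest folding gene, at 17.9, 14.1, 7.67 and 6.36 RPKM, higher in replicates 1 and 2 than in 3 and 4. Dnajc3 and Dnajc10, a J-domain disulfide reductase, lay between 30.4 and 76.1 RPKM.

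Sdf2l1, Creld2 and Manf had their lowest values in replicate 1, as did 26 of the 44 ER genes. Sdf2l1, which works with J-domain partners of BiP, measured 26.5, 96.5, 87.6 and 94.9 RPKM, a range of 3.64-fold that came from replicate 1 alone. Creld2 and Manf, both secreted stress-induced proteins, lay between 28.1 and 111 RPKM.

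Oxidation genes ranged from abundant enzymes to Pdia2, which was below 1 RPKM. P4hb (chr11:120421617-120434250, minus strand), the founding protein disulfide isomerase, measured 416, 689, 826 and 864 RPKM. Pdia3, the isomerase that partners the lectin chaperones, measured 223, 248, 185 and 184 RPKM. In the deposited values the pair moved in opposite directions between the libraries: P4hb was higher in replicates 3 and 4, Pdia3 in replicates 1 and 2. With the GC and length trend removed, Pdia3 was nearly level (SD 0.0353 on the log2 scale). P4hb stayed higher in replicates 3 and 4 (SD 0.515). P4hb was 1.86-fold to 4.69-fold above Pdia3 in 4 of 4 libraries (mean log2 difference 1.68 ± 0.63, exact sign-flip p = 0.13, adjusted p = 0.154).

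Pdia6 (chr12:17273400-17291576, plus strand), an isomerase that also works with BiP, measured 271, 633, 563 and 640.4 RPKM, with replicate 1 far below the others. Pdia4 measured 52.6, 76.2, 82.5 and 91.4 RPKM, and Pdia6 was 5.15-fold to 8.31-fold above it (mean log2 difference 2.73 ± 0.29, 4 of 4 libraries, exact sign-flip p = 0.13, adjusted p = 0.154). Pdia2, an isomerase known from the exocrine pancreas, was at 0.27, 0.13, 0.15 and 0.09 RPKM. These values correspond to an estimated 11.2, 4.94, 6.35 and 5.08 reads, against 3-read floors of 0.0531 to 0.0789 RPKM, so it was detected at the edge of the depth. Pdia2 was 1541-fold to 9604-fold below P4hb, and on the log2(RPKM + 1) scale the difference was -9.18 ± 0.57 (exact sign-flip p = 0.13, adjusted p = 0.154).

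The 2 ERO1 oxidases, which pass electrons from the isomerases to oxygen, were far apart. Ero1lb (chr13:12658149-12701795, plus strand), known as the oxidase of pancreatic islets and stomach, measured 481, 762, 648 and 640.3 RPKM. Ero1l, the broadly expressed oxidase, measured 47.2, 76.2, 30.4 and 28.8 RPKM. Ero1lb averaged 633 ± 116 RPKM and Ero1l 45.6 ± 22.0 RPKM (SD, n = 4), and Ero1lb was 10.0-fold to 22.3-fold higher in 4 of 4 libraries (mean log2 difference 3.86 ± 0.63, exact sign-flip p = 0.13, adjusted p = 0.154). Across replicates 1 to 4 the ratio was 10.2, 10.0, 21.3 and 22.3. Of the Ero1lb transcript, 13.9% was shared in 50-base stretches with a pseudogene, and how reads with several matches were counted is not given in the sources used here. Prdx4, a peroxiredoxin that oxidises isomerases, averaged 82.3 ± 22.0 RPKM. Txndc5 and Txndc11 averaged 76.5 and 25.8 RPKM, and Pdia5 15.5 ± 5.90 RPKM.

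Degradation genes clustered in a narrow band of levels. Of 11 genes, 9 averaged between 20.6 and 86.3 RPKM. Os9, a lectin that hands misfolded glycoproteins to the ERAD ligase, was the highest at 83.2, 101.3, 165 and 173 RPKM, with replicates 3 and 4 well above replicates 1 and 2. Syvn1, the gene of the ERAD ubiquitin ligase HRD1, measured 57.8, 35.0, 54.7 and 53.4 RPKM, low in replicate 2 only. Its adaptor Sel1l measured 63.1, 43.3, 56.0 and 51.9 RPKM, also lowest in replicate 2. Sel1l and Syvn1 averaged 53.6 ± 8.26 and 50.2 ± 10.3 RPKM, with Sel1l higher in 3 of 4 libraries and a mean log2 difference of 0.10 ± 0.15 (exact sign-flip p = 0.375, adjusted p = 0.375).

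The EDEM genes encode mannosidase-like proteins that mark glycoproteins for degradation. Edem1 measured 53.5, 49.6, 62.3 and 59.9 RPKM, Edem2 63.3, 70.2, 76.8 and 78.1 RPKM, and Edem3 24.7, 28.2, 16.0 and 13.6 RPKM. Edem1 was below Edem2 in 4 of 4 libraries (mean log2 difference -0.35 ± 0.11) and above Edem3 in 4 of 4 (1.46 ± 0.62, each with exact sign-flip p = 0.13 and adjusted p = 0.154). In the deposited values Edem3 alone of the family was lower in replicates 3 and 4.

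Derlins are membrane proteins of the dislocation channel. Derl1 measured 75.03, 88.9, 88.2 and 93.0 RPKM and Derl2 48.6, 58.5, 57.9 and 62.9 RPKM. In the deposited values their ratio was the steadiest of the 16 pairs, at 1.48-fold to 1.54-fold (mean log2 difference 0.59 ± 0.025, 4 of 4 libraries, exact sign-flip p = 0.13, adjusted p = 0.154). With a trend on GC content and length removed, the SD of this difference was 0.261, above the 0.102 of the Sec61b and Sec61a1 pair. Derl3 was listed at 0 RPKM in replicate 1 and at 0.04, 0.32 and 0.32 RPKM in replicates 2 to 4. These are an estimated 0, 1.17, 10.4 and 13.9 reads, so in replicates 1 and 2 it lay under the 3-read floors of 0.0942 and 0.103 RPKM. Against Derl1, Derl3 was -6.23 ± 0.15 on the log2(RPKM + 1) scale in 4 of 4 libraries (exact sign-flip p = 0.13, adjusted p = 0.154), a scale that understates differences of genes near 0. Herpud1 lay between 61.7 and 78.6 RPKM. Vcp averaged 29.9 ± 4.94 RPKM, but 60.1% of its transcript is shared in 50-base stretches with the pseudogene Vcp-rs, so its level is uncertain.

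Sensor genes were led by Xbp1 (chr11:5420969-5425875, plus strand), the transcription factor whose mRNA is spliced by IRE1, at 186, 245, 260 and 283 RPKM. Gene-level values do not separate its spliced and unspliced forms. Ern1, the gene of the IRE1 sensor, measured 112, 104, 112 and 105 RPKM and had the smallest spread of the ER genes averaging at least 1 RPKM in the deposited values (108 ± 4.39 RPKM, SD 0.058 on the log2 scale). With the GC and length trend removed its SD was 0.172, above that of Pdia3 (0.0353). It was neither above nor below 100 RPKM (limma adjusted p = 0.235). Ern2, the IRE1 relative known from mouse mucous epithelia, was at 0.49, 0.08, 0.02 and 0.03 RPKM, an estimated 34.4, 5.15, 1.43 and 2.87 reads. The values of replicates 3 and 4 were under the 3-read floors of 0.0419 and 0.0314 RPKM. Ern1 exceeded Ern2 by 6.58 ± 0.24 on the log2(RPKM + 1) scale in 4 of 4 libraries (exact sign-flip p = 0.13, adjusted p = 0.154). Of mucous and goblet cell markers, Tff3 averaged 2728 ± 709 RPKM, Tff2 244 ± 185 RPKM, and Fcgbp 107 ± 39.5 RPKM, while Muc2, Muc5ac, Muc5b, Muc6 and Spdef averaged under 1 RPKM and Tff1 was listed at 0.

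The ATF6 sensors were close together. Atf6 measured 54.0, 75.2, 57.0 and 50.6 RPKM, and its relative Atf6b measured 30.5, 23.9, 53.1 and 51.1 RPKM. Atf6 was 1.77-fold and 3.14-fold higher in replicates 1 and 2, while the pair were within 1.07-fold of each other in replicates 3 and 4 (mean log2 difference 0.63 ± 0.75, 3 of 4 libraries, exact sign-flip p = 0.25, adjusted p = 0.267). With the GC and length trend removed, Atf6 was higher in 4 of 4 libraries (0.63 ± 0.27). Wfs1, an ER membrane protein whose loss causes diabetes in Wolfram syndrome, averaged 54.2 ± 16.9 RPKM. In the translocation channel, Sec61a1 measured 148, 160, 204 and 211 RPKM and Sec61b measured 58.4, 106, 106 and 119 RPKM. Sec61b was below Sec61a1 in 4 of 4 libraries (mean log2 difference -0.92 ± 0.30, exact sign-flip p = 0.13, adjusted p = 0.154). As 41.0% of the Sec61b transcript is shared with Gm10320, its level is less certain.

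By role, the folding and oxidation genes had higher medians than the degradation and sensor genes in most libraries. The folding median was 57.5, 95.1, 88.4 and 92.3 RPKM in replicates 1 to 4 and the oxidation median 52.6, 76.2, 84.1 and 91.4 RPKM. The degradation median was 57.8, 49.6, 57.9 and 59.9 RPKM and the sensor median 51.2, 54.0, 63.0 and 58.7 RPKM. Folding was above oxidation by a log2 difference of 0.13 ± 0.13 (4 of 4 libraries), but this came to 0.04 with 1 of 4 libraries higher when genes under 1 RPKM were left out, and to 0.08 with 1 of 4 higher when the GC and length trend was removed, so their order was not settled. Folding exceeded sensors by 0.52 ± 0.27 (4 of 4), and by 0.31 ± 0.16 (4 of 4) without genes under 1 RPKM. Folding exceeded degradation in 3 of 4 (0.53 ± 0.39), with a difference of -0.01 in replicate 1. Oxidation exceeded degradation in 3 of 4 (0.40 ± 0.36) and sensors in 4 of 4 (0.39 ± 0.25), and degradation and sensors lay together (-0.01 ± 0.14, 2 of 4). With the GC and length trend removed, folding and oxidation each exceeded degradation in 4 of 4 (0.45 ± 0.42 and 0.38 ± 0.26). The medians carry no test. Replacing them by geometric means widened the distance of folding from degradation to 1.43 and from sensors to 1.44.

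**Figure D3:**
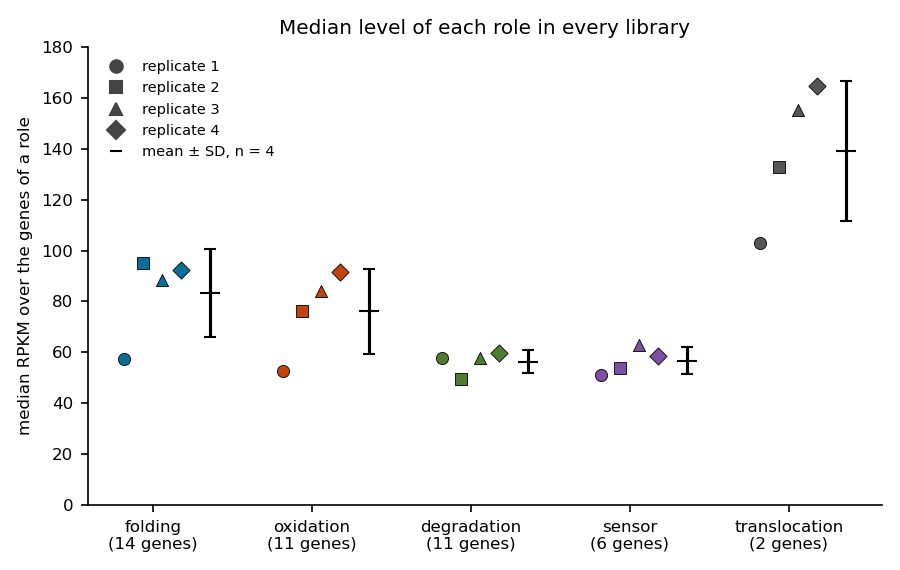
Median level over the genes of each role in each library, in RPKM, with the mean and SD over the 4 libraries. In the deposited values shown, folding and oxidation medians are lowest in replicate 1 (57.5 and 52.6 RPKM), while degradation and sensor medians stay between 49.6 and 63.0 RPKM in all libraries.

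The ER genes varied between libraries about as much as other genes, but in a shared way. The median SD over libraries was 0.327 on the log2 scale for the 41 genes averaging at least 1 RPKM, against 0.319 for all 11967 such genes. By role, in the deposited values, it was 0.443 for folding, 0.387 for oxidation, 0.189 for degradation and 0.260 for sensors. Replicate 1 gave the lowest value for 26 of 44 ER genes (59.1%), against 21.6% of all genes averaging at least 1 RPKM. Replicate 4 gave the highest for 21 of 44 (47.7%), against 21.7%, and replicate 2 gave the highest for 8 of 14 folding genes (57.1%), against 30.1%. Measured from each gene's own mean, the median deviation of the 41 genes was -0.26, 0.04, 0.11 and 0.18 in replicates 1 to 4, against 0.02, -0.01, -0.01 and 0.04 for all genes of at least 10 RPKM. Over all 44 genes the median SD was 0.323, and it was 0.179 without replicate 1, against 0.275 for all genes without that library, so replicate 1 decided much of the spread. The summed RPKM of all genes was lowest in replicate 1 too (481676, against 524764 to 581805). As a share of that sum the ER genes took 1.25% in replicate 1, against 1.65%, 1.30% and 1.26% in replicates 2 to 4. Also lowest in replicate 1 were the summed levels of Ins1, Ins2 and Iapp (3273 RPKM there, 8798 to 9965 RPKM elsewhere), of the gallbladder epithelial markers (1280 RPKM there, 1832 to 2480 RPKM elsewhere) and of the mucous and goblet markers (1906 RPKM there, 3075 to 4008 RPKM elsewhere). Their part in the low ER values was not tested. Per 100 RPKM of Ins2, Hspa5 was 59.3, 22.3, 14.1 and 12.5 RPKM and Ero1lb was 44.1, 20.6, 16.8 and 15.1 RPKM, both therefore highest in replicate 1 on that measure.

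**Figure D4:**
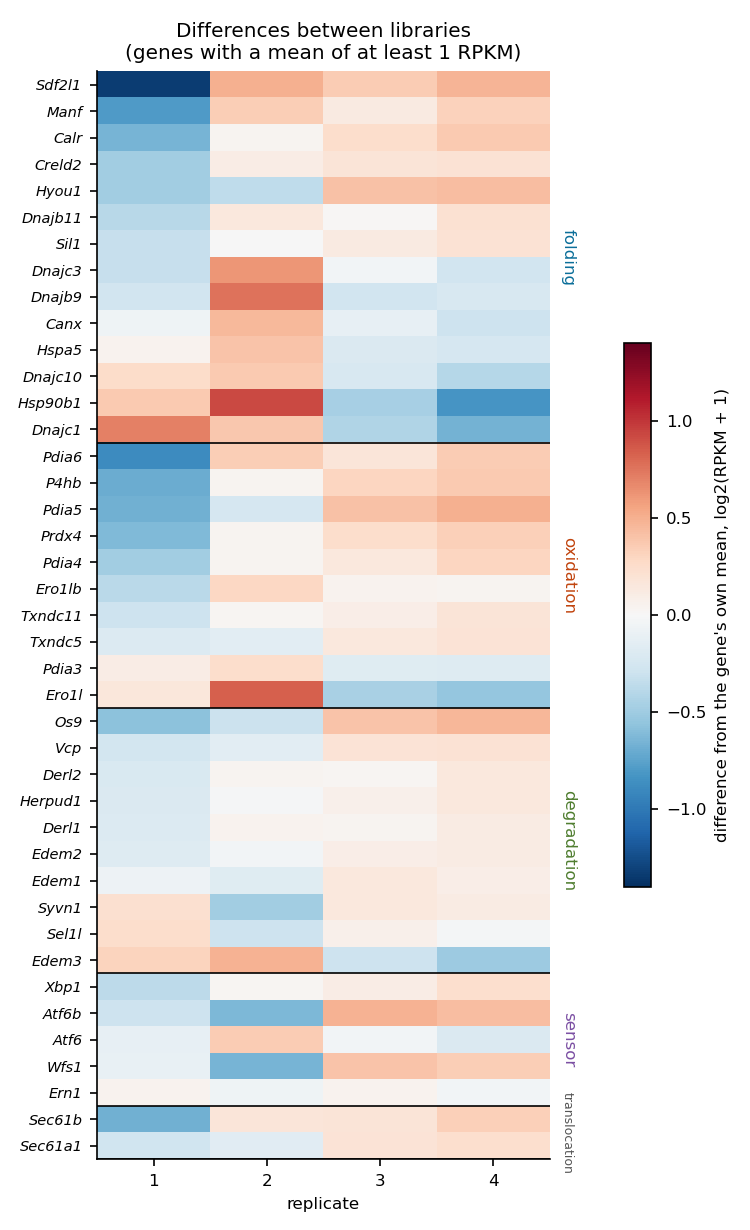
Deviation of each ER gene averaging at least 1 RPKM from its own mean over the 4 libraries, on the log2(RPKM + 1) scale, with a row for each gene, grouped by role, a column for each replicate and colour from blue (below the mean) to red (above it). Replicate 1 is below the gene's mean for all but 10 of 41 genes, with a median of -0.26, and replicate 2 is above it for 12 of 14 folding genes. Of 7492 genes averaging at least 10 RPKM, 3963 were above their mean in replicate 1 and 3682 in replicate 2.

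Replicates 1 and 2 stood apart from 3 and 4 for a share of ER genes near that of all genes, and the direction went with base composition. The same split separated the libraries with signal of the Y-linked gene Eif2s3y from those without it, and the part of that difference was not tested. In 20 of 41 genes both replicates 3 and 4 were above both replicates 1 and 2, against 29.7% of all genes of at least 1 RPKM, and in 8 of 41 both were below, against 41.2%. The 8 were Hspa5, Hsp90b1, Canx, Dnajc1, Dnajc10, Pdia3, Ero1l and Edem3, whose transcripts had a GC content of 41.6% to 48.8% (median 44.4%). The 20 had a GC content of 46.6% to 60.3% (median 53.4%). Across the 41 genes, the Spearman correlation of GC content with the deviation was -0.41, -0.69, 0.77 and 0.72 in replicates 1 to 4, against -0.27, -0.65, 0.58 and 0.53 across 11842 genes. These are descriptions across genes, which are not independent replicates and which share the 4 libraries. Once a linear trend on GC content and length was removed the counts were 25 and 3 of 41, against 35.8% and 34.2% of all genes. Replicate 1 was then above the gene's own mean in 4 of 41 genes, with a median deviation of -0.37. Among all 7432 genes of at least 10 RPKM it was above in 3173, with a median of -0.06.

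**Figure D5:**
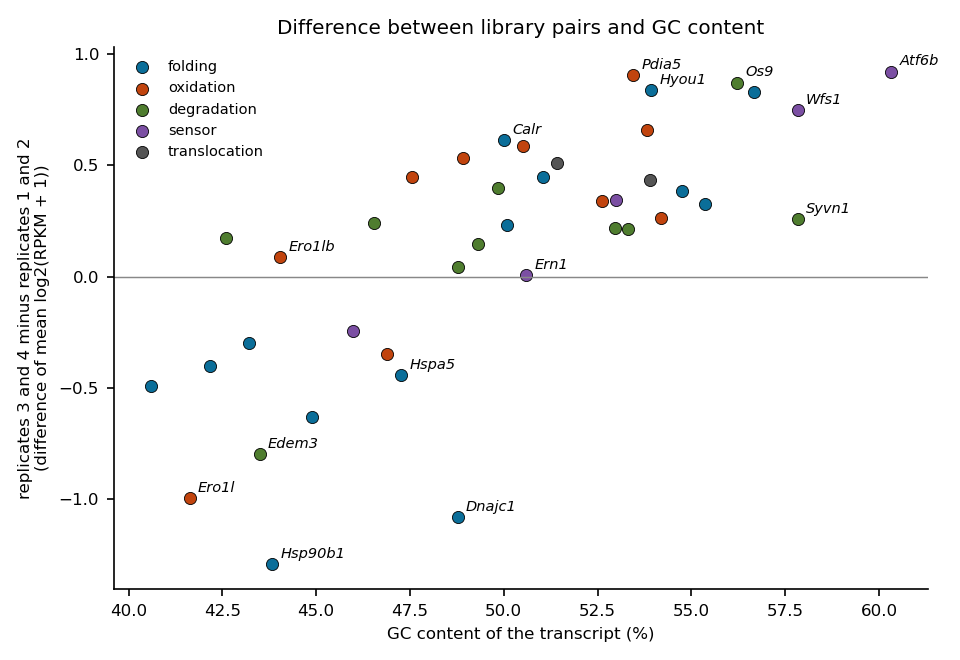
Difference in mean log2(RPKM + 1) between replicates 3 and 4 and replicates 1 and 2 (vertical axis) against the GC content of the transcript in percent (horizontal axis), with a point for each of the 41 ER genes averaging at least 1 RPKM, coloured by role. Genes below the line at 0, such as Hsp90b1 (GC 43.8%) and Ero1l (41.6%), lie at GC contents under 49%, and Atf6b (60.3%) is the highest point.

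Other genes of the same pathways, outside the 44, filled in the picture. Of 78 listed, 75 had a row, and 65 were above 1 RPKM, 56 above 10 RPKM and 15 above 100 RPKM, against 65%, 35.9% and 3.79% of all genes, while 5, 12 and 48 were below these levels, against 26.1%, 48.2% and 92.8% (limma, adjusted p under 0.05 over all genes). Of the 7 PERK branch genes all were above 1 RPKM, and Atf4, the transcription factor translated when PERK is active, was the single gene called above 100 RPKM (168 ± 19.9 RPKM). Asns, an asparagine synthetase gene induced by ATF4, averaged 133 ± 37.1 RPKM and was called neither above nor below 100 RPKM. The PERK kinase gene Eif2ak3 averaged 37.3 ± 6.74 RPKM and Ddit3, which encodes the stress factor CHOP, 20.7 ± 2.74 RPKM. Of the 7 genes for ATF6 cleavage and its CREB3 relatives, 5 were above 1 RPKM and 0 above 100 RPKM, with the site-1 protease gene Mbtps1 at 67.6 ± 10.9 RPKM. Creb3l1 was at 15.7, 7.19, 3.55 and 3.61 RPKM, highest in replicate 1.

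Enzymes that act beside the chaperones were mixed. Among the 7 prolyl isomerases, Fkbp9 averaged 1042 ± 155 RPKM and Ppib, cyclophilin B, 326 ± 77.4 RPKM, both above 100 RPKM, while Fkbp10 was below 1 RPKM. Of 13 further PDI-like enzymes 9 were above 1 RPKM and 4 below, shares near those of all genes (65% and 26.1%). Qsox1 (238 ± 54.6 RPKM) and Erp29 (148 ± 33.0 RPKM) were above 100 RPKM, and Gpx7, Gpx8, Agr2 and Agr3 were below 1 RPKM. Of 8 genes of the glycoprotein cycle 5 were above 10 RPKM and Prkcsh, the glucosidase II beta subunit, was the single gene called above 100 RPKM (181 ± 65.6 RPKM). All 14 further ERAD genes were above 1 RPKM, against 65% of all genes. Of the 11 ERAD genes of the main list 10 were, and Derl3 was below it. In both lists 0 genes were above 100 RPKM, against 3.79% of all genes, and in lists this short 0 is near that share. Of 13 translocation and signal peptidase genes 5 were above 100 RPKM, with Ssr4 at 314 ± 115 RPKM and Spcs1 at 296 ± 72.1 RPKM. Of 6 oligosaccharyl transferase genes 4 were above 100 RPKM, led by Dad1 (422 ± 93.7 RPKM) and Rpn2 (360 ± 37.7 RPKM).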

How the data were processed

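The authors deposited 1 table of RPKM values per gene symbol, rounded to 2 decimals. Build mm9, Bowtie and CASAVA 1.8.2 are named, per the submitters' processing notes. No counting program or strand setting is given in the sources used here. Because strand is unknown, reads of Pdia6, Txndc11 and Syvn1 cannot be told apart from those of their overlapping opposite-strand genes (Atp6v1c2, Snn and Mrpl49). A further 6 columns of per-sample values carry names outside this series and were left out. RPKM holds no read totals, so depth was estimated from 993 olfactory receptor genes spanning under 1100 bases (tolerance 0.0051 RPKM), and floors of 3 reads cover counting error only.

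Levels were tested on log2(RPKM + 1) with limma 3.58.1 in R 4.3.3 (moderated variances with a trend, two-sided, Benjamini-Hochberg over the 16919 genes detected in at least 1 library, threshold 0.05) against 1, 10 and 100 RPKM. The test was checked on simulated data. Related genes were compared within libraries by an exact sign-flip test, adjusted over 16 pairs, on the same scale. Role medians, spreads and promoter elements carry no test. GC content and shared sequence come from RefSeq transcripts (98.1% of genes matched). Gene coordinates are those of the table (mm9), and promoter coordinates those of GRCm38.p6.

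Named with every value were, in each role, the 3 highest genes by mean and the lowest, genes at 0 in any library, genes over 3-fold between libraries and both members of each pair, 32 in all. The members, lists and tests were chosen with earlier results of these data known. Alternatives covered the pseudocount, filter, scaling, trend, role membership and each left-out library.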

Additional observations from a re-analysis of the deposited data

Results flagged for a closer look

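Of the 44 ER genes, 7 had a library that stood apart from the other 3, in that its gap to the nearest value took a larger share of the range than Dixon's 95% critical value for 4 samples, which chance passes in about 1 of 20 groups if the 4 values are independent. Among genes averaging at least 1 RPKM it was 6 of 41 ER genes (14.6%), against 6.63% of all 11967 genes. In 4 of the 7 it was a low value in replicate 1: Sdf2l1 at 26.5 RPKM, Creld2 at 28.1 RPKM, Pdia6 at 271 RPKM and Sec61b at 58.4 RPKM. Replicate 1 also stood high for Ern2, at 0.49 RPKM. Replicate 2 stood high for Dnajb9, at 93.8 RPKM, and low for Syvn1, at 35 RPKM. The folding median was set apart in the same way by its low value of 57.5 RPKM in replicate 1.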

How the results depend on the processing

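No call or pair difference changed direction under the alternatives tried. Removing the GC and length trend could not test this. It keeps each gene's mean over the libraries, so mean pair differences stayed the same apart from genes near 0. The limma calls were not rerun with that trend removed. The counts above 1, 10 and 100 RPKM stayed at 41, 39 and 10, except that Pdia5 also passed 10 RPKM without replicate 1 (40 genes). With only genes averaging at least 1 RPKM tested, 0 ER genes could be below 1 or 10 RPKM, by construction. At 100 RPKM, Dnajb9 lost its call without replicate 1, and Dnajb11 and Pdia4 lost theirs with median ratio scaling and without replicate 2 or 3, Pdia4 also with no filter; the cause was not tested. The median SD between libraries was 0.179 to 0.377 when a library was left out. Geometric means over a role gave 107 RPKM for folding, 38.7 for degradation and 38.4 for sensors, where low genes weigh more, and log2 differences of 0.51 for folding from oxidation, 1.43 from degradation and 1.44 from sensors, and of 0.92 and 0.94 for oxidation from degradation and sensors. The sensor median was 66.1 RPKM without genes under 1 RPKM and 49.4 RPKM without Xbp1 and Wfs1, and degradation then differed from it by -0.16 and 0.19, and it lay on either side of 0 under other settings too, so their order was not settled. With 1 mismatch allowed, 17 gene promoters held an ER stress element, and the share over all genes with a window was 1.72%, against 0.137% without. Averaging replicates 3 and 4 as 1 library and removing the GC and length trend were added after seeing the data and moved no median SD or role value by more than the spread; with replicates 3 and 4 averaged, 41, 39 and 10 genes were above the 3 levels and Dnajb11 lost its call below 100 RPKM. Depth limited the values of Pdia2, Derl3 and Ern2.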
